A study of Mus musculus with 8 samples.

Results

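The members described here are the nuclear genes for subunits of the mitochondrial respiratory chain and ATP synthase, measured in CD45+/Sca1+ cells of the mouse. They were taken by symbol (Nduf, Sdha to Sdhd, Uqcr, Cox4 to Cox8 and Atp5 names, older Atp5 synonyms included, pseudogenes left out) from the probe sets that the platform annotation assigns to 1 gene. The rule gave 86 genes with 158 probe sets, out of 12393 named genes and 22626 probe sets that are no controls. They fall into 33 subunits of complex I, 4 of complex II, 8 of complex III, 17 of complex IV and 18 of complex V, and the symbols also brought in 6 assembly factors (Ndufaf1, Ndufaf3, Ndufaf4, Ndufaf5, Ndufaf7, and Dmac2, once named Atp5sl). Ndufa4 was counted with complex IV, where the protein is now placed. Each gene is represented by the probe set, a group of short oligonucleotides for 1 transcript, with the highest mean over the 8 arrays, and 45 of the genes had several. None of the subunits encoded in mitochondrial DNA had a named probe set, so complex II, which is wholly nuclear, is the only complex that could be described over all of its subunits.

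The arrays hold RNA of CD45+/Sca1+ cells, that is, cells that carry the general leukocyte surface protein CD45 and the stem cell antigen Sca1, from C57BL/6 mice of 6 to 8 weeks. Every group had 2 arrays: cells from the bone marrow, cells from uninjured muscle, cells from muscle injured with Cardiotoxin (a snake venom toxin that destroys muscle fibres, after which the muscle regenerates) in untransplanted mice, and cells from muscle injured with Cardiotoxin in mice transplanted with bone marrow. All cells were processed fresh, and each array was made from 1 µg of total RNA. The time after injury, the donor and the conditioning of the transplanted mice, whether their sorted cells came from donor or host, and whether replicates were separate animals or pools are not stated in the labels. The p-values therefore measure no more than the spread between arrays of a group, and that spread may be technical. No group of transplanted mice without injury was analysed here.

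The respiratory chain sits in the inner mitochondrial membrane. Complex I takes electrons from NADH and complex II, succinate dehydrogenase, takes them from succinate. Both pass them on to ubiquinone, complex III hands them to cytochrome c, and complex IV, cytochrome c oxidase, reduces oxygen with them. The protons pumped by complexes I, III and IV drive complex V, the ATP synthase. Subunits are assembled stepwise with dedicated assembly factors, several subunits of complexes IV and V exist as paralogues that are used in different tissues (Cox6a2, Cox7a1 and Cox8b are those of heart and skeletal muscle), and nuclear respiratory factors, ETS family factors and YY1 are textbook regulators of these genes. Macrophages and other leukocytes change their use of this chain with activation.

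Promoter sequences of 9 members are shown first, to let the measured changes be read beside the DNA in front of each gene: 6 members that were called higher after injury and hold a match to a textbook motif, then Atp5l and Sdhb, which were called higher without a match in the stretch shown, and Sdha, which has matches and was not called. Each is the 120 bases before the annotated start in RefSeq (GRCm38.p6), 5′ to 3′ on the gene's strand, with motif matches in capitals.
Ndufs5: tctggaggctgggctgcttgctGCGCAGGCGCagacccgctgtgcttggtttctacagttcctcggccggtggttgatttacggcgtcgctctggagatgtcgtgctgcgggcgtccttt
Ndufa8: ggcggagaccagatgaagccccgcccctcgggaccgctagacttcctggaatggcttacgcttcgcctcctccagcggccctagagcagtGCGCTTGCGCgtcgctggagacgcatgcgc
Atp5g2: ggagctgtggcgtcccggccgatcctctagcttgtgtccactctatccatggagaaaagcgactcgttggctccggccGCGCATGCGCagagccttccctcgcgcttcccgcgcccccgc
Cox6a1: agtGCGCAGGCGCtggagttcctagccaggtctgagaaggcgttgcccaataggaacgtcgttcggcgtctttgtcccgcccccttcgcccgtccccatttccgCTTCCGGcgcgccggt
Cox6b1: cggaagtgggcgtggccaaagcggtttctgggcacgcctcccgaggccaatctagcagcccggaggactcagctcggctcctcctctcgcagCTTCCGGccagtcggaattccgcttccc
Atp5e: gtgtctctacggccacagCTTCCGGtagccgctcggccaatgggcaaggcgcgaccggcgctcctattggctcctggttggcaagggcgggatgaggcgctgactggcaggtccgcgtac
Atp5l: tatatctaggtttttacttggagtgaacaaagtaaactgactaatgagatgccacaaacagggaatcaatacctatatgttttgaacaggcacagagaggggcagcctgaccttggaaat
Sdhb: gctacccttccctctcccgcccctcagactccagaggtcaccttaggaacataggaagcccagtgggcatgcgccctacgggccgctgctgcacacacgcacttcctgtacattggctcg
Sdha: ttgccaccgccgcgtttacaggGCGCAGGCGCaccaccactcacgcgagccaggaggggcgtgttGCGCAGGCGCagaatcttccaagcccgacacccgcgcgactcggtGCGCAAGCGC
The motifs searched on both strands were GCGCA and GCGC with any 1 base between them for nuclear respiratory factor 1, CCGGAAG for ETS factors and AANATGGC for YY1, and no match of one motif overlaps a match of another in these stretches. Capitals mark the nuclear respiratory factor motif in Ndufs5, Ndufa8, Atp5g2 and, 3 times, Sdha, the ETS motif in Cox6b1 and Atp5e, and both in Cox6a1, where the ETS match is the one nearer the start. The stretches lie at chr4:123718187-123718306 (minus strand) for Ndufs5, chr2:36049339-36049458 (minus strand) for Ndufa8, chr15:102671048-102671167 (minus strand) for Atp5g2, chr5:115348959-115349078 (minus strand) for Cox6a1 and chr7:30626115-30626234 (minus strand) for Cox6b1. Those of Atp5e, Atp5l, Sdhb and Sdha lie at chr2:174464102-174464221 (minus strand), chr9:44920743-44920862 (minus strand), chr4:140961151-140961270 (plus strand) and chr13:74350241-74350360 (minus strand).

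Over the 250 bases before the start, 72 of the 86 members had a sequence and 11 of them (15.3%) held the nuclear respiratory factor motif, against 4.23% of 27025 genes. The ETS motif was in 13 (18.1%) against 7.83%, and the YY1 motif in 8 (11.1%) against 4.49%. Of the 19 members with a sequence that were called higher after injury, 4 held each motif (21.1%). Of the other 53, 7 held the nuclear respiratory factor motif (13.2%), 9 the ETS motif (17.0%) and 4 the YY1 motif (7.55%). These shares are descriptions of letters in a window, and no binding was measured.

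The arrays fell into 2 kinds by their RNA controls. The ratio of the 3' to the 5' control probe set of Gapdh was 24.4 and 10.7 in marrow cells and 46.9 and 13.6 in cells of uninjured muscle, but 0.833 and 0.808 in injured and 0.882 and 0.868 in transplanted injured muscle, and that of actin was 5.68 to 19.0 on the 4 uninjured arrays and 1.18 to 1.23 on the 4 injured ones. Any comparison of an injured with an uninjured group is therefore also one between arrays with low and with high ratios, and the part of this in the results below was not tested. Ptprc, the gene of CD45 by which the cells were sorted, was 4924 to 6996 on all 8 arrays and was not called in any comparison, while the annotation names no probe set for Ly6a, the gene of Sca1. In such bulk RNA, fewer cells of a type and less RNA per cell cannot be told apart. The deposited intensities had been scaled to one trimmed mean on all arrays. Differences are given as log2 fold changes of intensity + 4, tested with limma on 16289 probe sets that reached 38.4, the 40th percentile of all intensities, on at least 2 arrays. Called means a Benjamini-Hochberg adjusted p of at most 0.05. Of the members, 85 passed that filter, and Cox8b did not.

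Across the 4 groups the members were most often highest in transplanted injured muscle and lowest in uninjured muscle. By group mean, 39 of the 86 genes were highest in transplanted injured muscle, 19 in injured muscle, 17 in bone marrow and 11 in uninjured muscle. The lowest mean lay in uninjured muscle for 36 genes, in bone marrow for 28, in injured muscle for 12 and in transplanted injured muscle for 10. These counts include the untested Cox8b. The ranking was not made over all probe sets, so it does not set the members apart from other genes. On 32 (37.6%) of the 85 tested members all 4 arrays of injured muscle were above all 4 other arrays, and on 5 (5.88%; Cox6a2, Cox7a2l, Cox8c, Ndufa1 and Ndufaf5) all 4 were below, against 18.8% and 22.4% of all probe sets tested. Over the members, the 2 arrays of a group lay closer together after injury. The median difference between them was 0.13 log2 units in injured and 0.20 in transplanted injured muscle. It was 0.41 in bone marrow and 0.48 in uninjured muscle, where 14 members differed by more than 2-fold between the arrays. The widest gap was 2.48 log2 units, for Atp5g2 in uninjured muscle. The same spread was not computed over all probe sets.

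**Figure D1:**
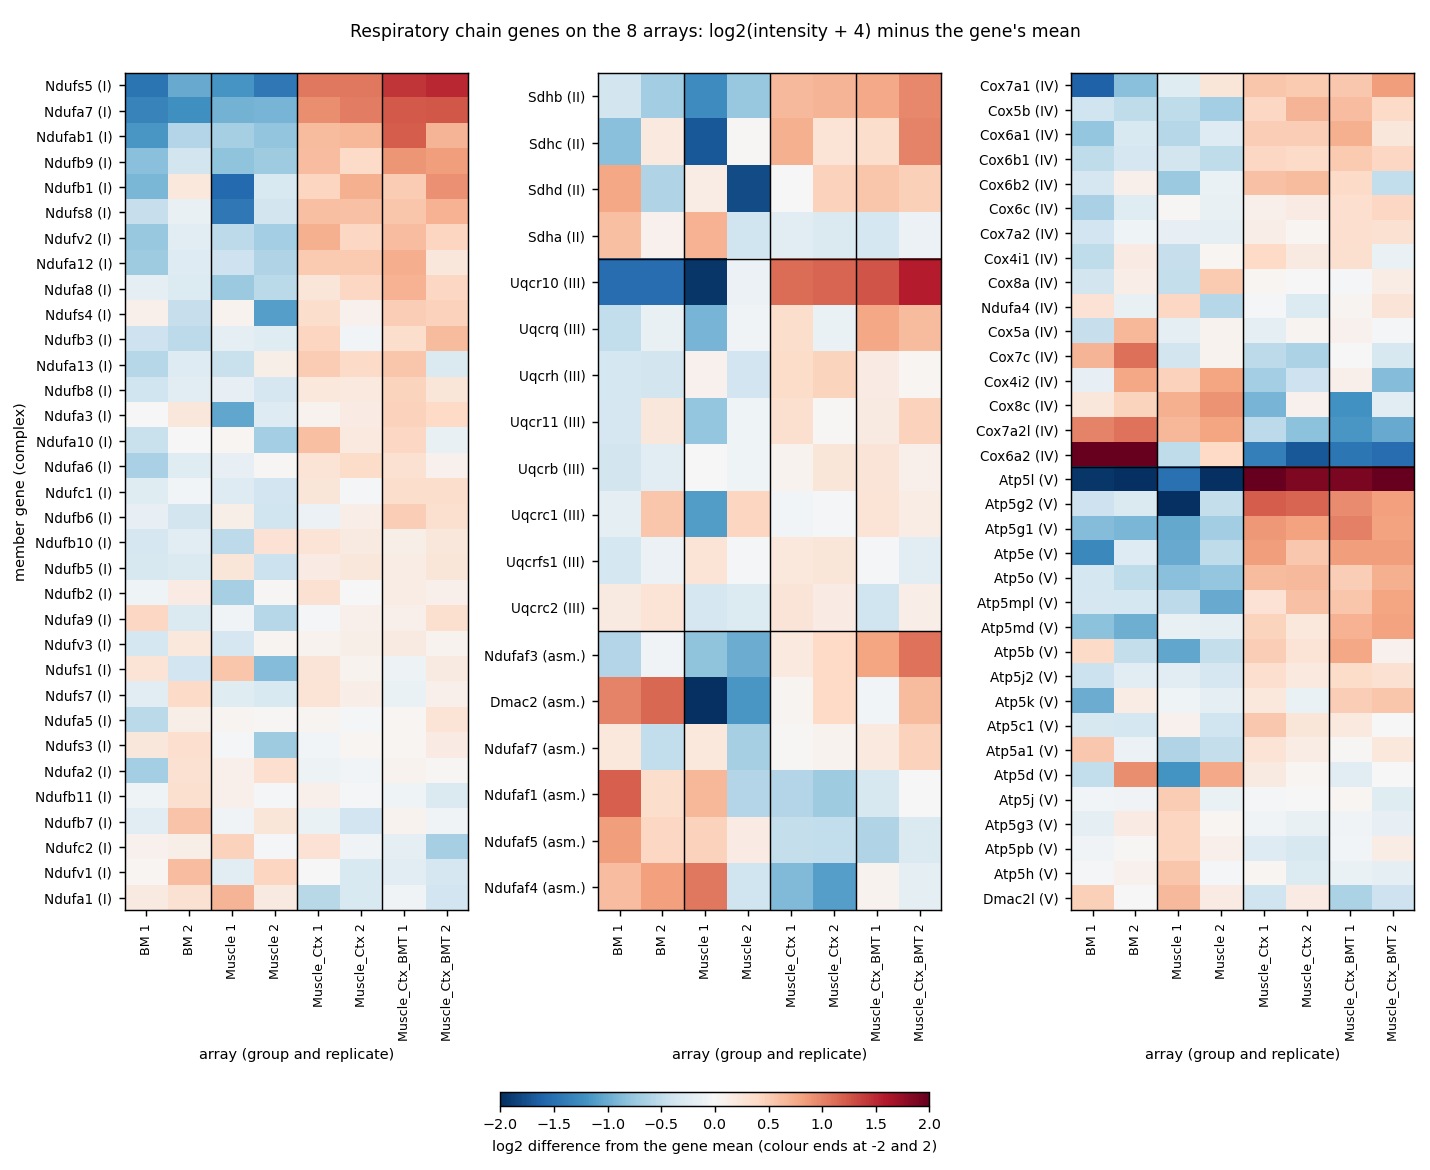
Each row is a member, grouped by complex, and each column an array; colour is the log2(intensity + 4) minus the gene's mean over the 8 arrays. The 4 arrays of injured muscle are the upper ones for 32 of the 85 tested members, and Cox6a2 and Cox7a2l run the other way.

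The effect of injury on the chain was addressed with injured against uninjured muscle, both without transplant. Of the 85 members tested, 21 (24.7%) rose after injury, 3 (3.53%) fell and 61 did not pass. Over all probe sets tested 12.1% were called higher and 13.9% lower, and with 1 probe set per gene, as for the members, 8.77% and 15.1% of 9506 genes. The members that rose were 8 subunits of complex I, 1 of complex II, 1 of complex III, 3 of complex IV, 6 of complex V and 2 assembly factors, and those that fell were 1 of complex I and 2 of complex IV. The median log2 fold change was 0.46 over the members and -0.14 over all probe sets. By complex it was 0.42 for I, 1.19 for II, 0.53 for III, 0.09 for IV and 0.55 for V, and -0.21 for the assembly factors. Both injured arrays were above both uninjured ones for 48 members (56.5%) and below for 12 (14.1%), against 28.9% and 37.4% of all probe sets.

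The call counts of this comparison varied widely with the arrays in the fit. Without injured array 1 or 2, 6 and 7 members rose, without uninjured array 2 the counts were 30 and 8, without any 1 of the 4 arrays from injured muscle 1 fell, and with only the 4 arrays compared in the fit 11 rose and 1 fell. Of the 24 calls, 5 held under every alternative run (Atp5l, Cox7a2l, Ndufa7, Ndufs5 and Sdhb). Beside these changes, the 3' to 5' ratios were lower as given above, the summed intensity of 6 macrophage markers went from 15374 to 18783 before to 39621 to 40612 after injury (5 of 6 called higher), that of 6 neutrophil granule genes from 10438 to 16666 to 110 to 132 (all 6 called lower), and that of 7 endothelial genes from 8991 to 11430 to 835 to 914 (5 called lower). Of 6 B cell genes 4 and of 5 T cell genes 3 were called lower, of 22 tested muscle fibre genes 13, and of 7 fibroblast genes none in either direction (by limma's unadjusted p under 0.05, 1 higher and 0 lower). That unadjusted threshold was met by 41.0% of all probe sets, both directions together. Of 6 proliferation genes 3 were called higher and 0 lower, with summed intensities of 1507 to 2774 before and 3083 to 3155 after injury. No marker was listed at 0, but all 6 neutrophil granule genes and 5 of the 6 B cell genes were under the filter value on both of these injured arrays. The part of these genes' cells in the members' changes was not tested.

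**Figure D2:**
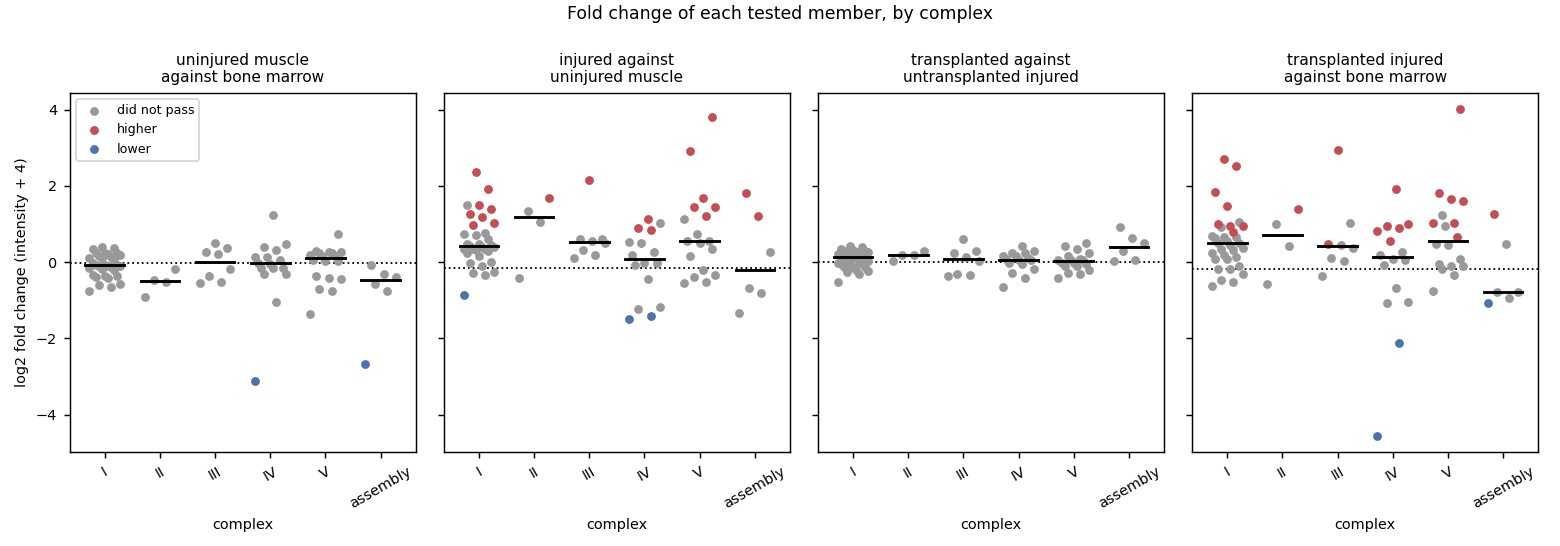
Log2 fold change of every tested member in the 4 comparisons, by complex; points are genes, red where called higher and blue where called lower at an adjusted p of 0.05, black bars are medians by complex and the dotted line is the median of all probe sets; values are fitted ones, also where a group lay under the filter value. In the comparison of injured with uninjured muscle the called points above 0 run from 0.84 to 3.81 and those below from -1.48 to -0.86, and between the injured groups none is called.

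Complex I, the NADH dehydrogenase, had 27 of 33 subunits with a positive and 6 with a negative fold change after injury. Over all probe sets 45.3% of the fold changes were positive, and over genes with 1 probe set each 41.4%. Ndufs5, a small subunit of the iron-sulphur group by name and one of the accessory proteins of the complex, had 203 and 169.6 in uninjured muscle and 969.7 and 966 after injury, and 165 and 229 in bone marrow. Every injured array was thus above every uninjured one, and the log2 fold change was 2.36 (SE 0.30, adjusted p = 0.00213). Ndufa7, another accessory subunit, had 484 and 489 before and 1771 and 1904 after injury (log2 fold change 1.91, SE 0.24, adjusted p = 0.00209). It had 5 probe sets, all of which were called higher. Ndufb9, an accessory subunit of the membrane arm, had 719.6 and 771 before and 1934 and 1640.5 after injury (1.25 log2 units, SE 0.26, adjusted p = 0.0117).

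Of the core subunits, which carry the electron transfer, Ndufs8 and Ndufv2 rose. Ndufs8, which holds iron-sulphur clusters, had 726 and 1522 before and 2977 and 2944 after injury (log2 fold change 1.49, SE 0.34, adjusted p = 0.0171), so that the arrays before injury lay more than 2-fold apart while those after it nearly coincided. Ndufv2 had 849 and 762 against 2009 and 1642 (1.17, SE 0.28, adjusted p = 0.0191), but its 2 other probe sets had lower values after injury, and the mean of all 3 gave -0.16. Ndufab1, which doubles as the mitochondrial acyl carrier protein, had 276 and 253 against 689 and 703 (1.38, SE 0.33, adjusted p = 0.0199). Ndufa12 and Ndufa8 rose by 1.02 and 0.96 log2 units (adjusted p = 0.0274 and 0.0249). Ndufa1, a small membrane subunit needed for assembly of the complex, was the exception in direction: it had 5092 and 3617 before and 2161 and 2577 after injury and fell by 0.86 log2 units (SE 0.24, adjusted p = 0.0326). That call was lost with median centring (-0.715), with only the arrays compared, and without uninjured array 1 or any 1 of the 4 injured arrays.

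Complex II was the only complex with all its subunits on the array, and 1 of the 4 passed. Sdhb, the iron-sulphur subunit, had 969.6 and 1374 in uninjured and 3647 and 3709.6 in injured muscle, and rose by 1.67 log2 units (SE 0.25, adjusted p = 0.00396). The membrane anchors had wide gaps between the uninjured arrays: Sdhc had 115 and 386 against 625 and 461 (log2 fold change 1.33, SE 0.60, adjusted p = 0.133), and Sdhd 883 and 229 against 797 and 1098 (1.05, SE 0.65, adjusted p = 0.256). Sdha, the flavoprotein that oxidises succinate, had 3224 and 1514 against 1699.9 and 1617, and its log2 fold change was -0.41 (SE 0.36, adjusted p = 0.419). Both injured arrays were above both uninjured ones for Sdhb and Sdhc, but only Sdhb passed, and the differences between the subunits' fold changes were not tested. In the stretches printed above, Sdha holds 3 matches of the nuclear respiratory factor motif and Sdhb none of the motifs searched.

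All 8 subunits of complex III had positive fold changes, between 0.11 and 2.17, but only Uqcr10 passed. Of all probe sets 45.3% had positive fold changes. Uqcr10, a small subunit beside the Rieske protein, had 114 and 412 in uninjured and 974 and 1003 in injured muscle (log2 fold change 2.17, SE 0.53, adjusted p = 0.0217). Bone marrow had 153 and 154, so the array of uninjured muscle at 412 stood apart from the other 3 without injury. Of the rest, Uqcrfs1, the Rieske iron-sulphur protein itself, had 1391 and 1129 against 1336 and 1363 (0.11, adjusted p = 0.773). Uqcrh, Uqcrc2 and Uqcr11 had 0.55, 0.51 and 0.61, with adjusted p = 0.16, 0.171 and 0.22.

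Complex IV was split, with 8 positive and 8 negative fold changes, against 45.3% positive over all probe sets. Cox5b, the zinc-binding subunit, had 4334 and 3848 before and 8237 and 9829 after injury (log2 fold change 1.14, SE 0.18, adjusted p = 0.0046). Cox6b1, which lies where the monomers of the dimer meet, had 4397 and 3969 against 7538 and 7394 (0.84, SE 0.16, adjusted p = 0.00954). For both, the 4 arrays of injured muscle lay well clear of the other 4. Cox7a2l, a Cox7a relative that takes part in joining complexes III and IV into supercomplexes, had 3868 and 4204 before and 1689 and 1373 after injury and fell by 1.40 log2 units (SE 0.21, adjusted p = 0.004). Its 2 other probe sets had the same sign, and 1 of them was called lower as well.

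Complex V held the largest rise of any member. Atp5l, subunit g of the membrane part of the synthase, had 209 and 120.2 in uninjured muscle and 151 and 134 in bone marrow, against 2368 and 2179 in injured muscle (log2 fold change 3.81, SE 0.33, adjusted p = 0.000858). The 4 arrays without injury and the 4 with it formed separate blocks, and this gene had a single probe set. Atp5o, the stalk subunit that gives sensitivity to oligomycin, had 734 and 766 against 2036 and 2055 (1.44, SE 0.23, adjusted p = 0.00471). Atp5mpl, a small membrane protein of the synthase, had 857 and 616 against 1505 and 1858 (1.20, SE 0.27, adjusted p = 0.0155), and Atp5e, subunit epsilon of the rotor stalk, had 536 and 758 against 1935 and 1572 (1.45, SE 0.37, adjusted p = 0.0262). The catalytic subunit Atp5b did not pass, with 877 and 1296 against 2533 and 2169 (1.13, adjusted p = 0.0563). Nor did the alpha subunit Atp5a1, with 2123 and 2309.5 against 3895 and 3562 (0.75, adjusted p = 0.0593). The lowest fold change of the complex was -0.55 for Atp5pb, a subunit of the peripheral stalk, with 2623 and 2092 against 1631 and 1567 (adjusted p = 0.102).

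**Figure D3:**
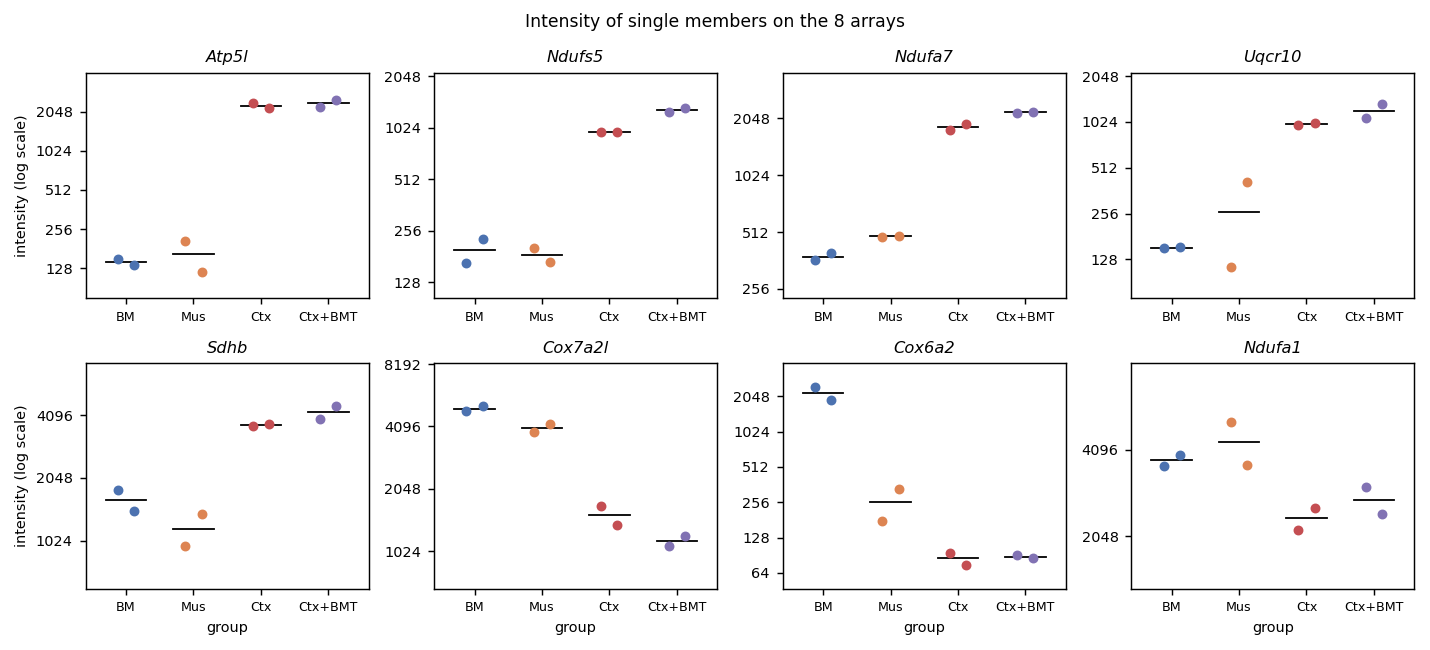
Intensity (log2-scaled axis) of 8 members on each of the 8 arrays; points are arrays and bars the mean of the 2 arrays of bone marrow (BM), uninjured (Mus), injured (Ctx) and transplanted injured muscle (Ctx+BMT). Atp5l, Ndufs5, Ndufa7 and Sdhb are higher on all 4 injured arrays than on all others, and Cox7a2l, Cox6a2 and Ndufa1 lower.

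Among the assembly factors taken by the symbols, 2 rose after injury and the others did not pass. Ndufaf3, a complex I assembly factor, had 131 and 115 before and 267 and 309 after injury (log2 fold change 1.20, adjusted p = 0.0326). Dmac2, which acts in building the membrane arm of complex I, had 15.2 and 30.9 in uninjured muscle, both under the filter value, and 77.2 and 98.6 in injured muscle, and so was at least 2.17-fold higher (adjusted p = 0.02). Ndufaf4 had 700.5 and 254 against 179 and 154 (log2 fold change -1.32, adjusted p = 0.0694). With Muscle array 1 left out the median of the 6 was 0.33 instead of -0.21.

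The paralogues did not move as sets. Of the 3 genes for the same subunit c of the synthase's rotor ring, Atp5g1 had 268 and 336 before and 1002 and 956 after injury (log2 fold change 1.69, SE 0.28, adjusted p = 0.00519). Atp5g2 had 168 and 955 against 3099.6 and 2975 (2.90, SE 0.66, adjusted p = 0.0162), with uninjured arrays far apart. Atp5g3 had 6544 and 4981 against 4632 and 4349 (-0.35, SE 0.21, adjusted p = 0.236). Thus Atp5g1 and Atp5g2 rose and Atp5g3 did not pass, and the fold changes were not tested against each other.

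For subunit 6a of complex IV, the widely expressed Cox6a1 had 4237 and 5213 before and 8834 and 8788 after injury (log2 fold change 0.91, SE 0.24, adjusted p = 0.0267), while the heart and muscle form Cox6a2 had 177 and 335 against 95.3 and 75.4 and fell by 1.48 log2 units (SE 0.38, adjusted p = 0.0265). The 2 forms thus rose and fell, though Cox6a2 lost its call with only the arrays compared or without any 1 of the 4 injured arrays. Cox6b2, the testis form of 6b, had 22.0 and 35.8, both under the filter value, against 61.2 and 63.0, at least 1.56-fold more, and did not pass (adjusted p = 0.139). Cox4i1 had 2775 and 3927 against 5071 and 4367 (0.51, adjusted p = 0.225) and its lung form Cox4i2 69.0 and 88.1 against 29.1 and 35.9, under the filter value and at least 1.95-fold less (adjusted p = 0.117). Neither form of Cox4 passed.

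For subunit 7a, Cox7a1, the muscle form, had 30.6 and 44.3 before and 55.6 and 54.3 after injury (0.53, adjusted p = 0.409), and Cox7a2, the common form, 3901 and 3865 against 4803 and 4492 (0.26, adjusted p = 0.309). Neither passed, and their relative Cox7a2l is given above. For subunit 8, Cox8a had 765 and 1536 against 1087 and 1066 (-0.01, adjusted p = 0.985), and Cox8c, a testis form, 201 and 229.7 against 61.5 and 128 (-1.23, adjusted p = 0.0886). Cox8b, the muscle form, stayed below the filter value on all 8 arrays, with 3.46 to 32.8. Ndufa4, the last subunit, had 1111 and 557 against 819 and 683 (-0.07, adjusted p = 0.9).

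**Figure D4:**
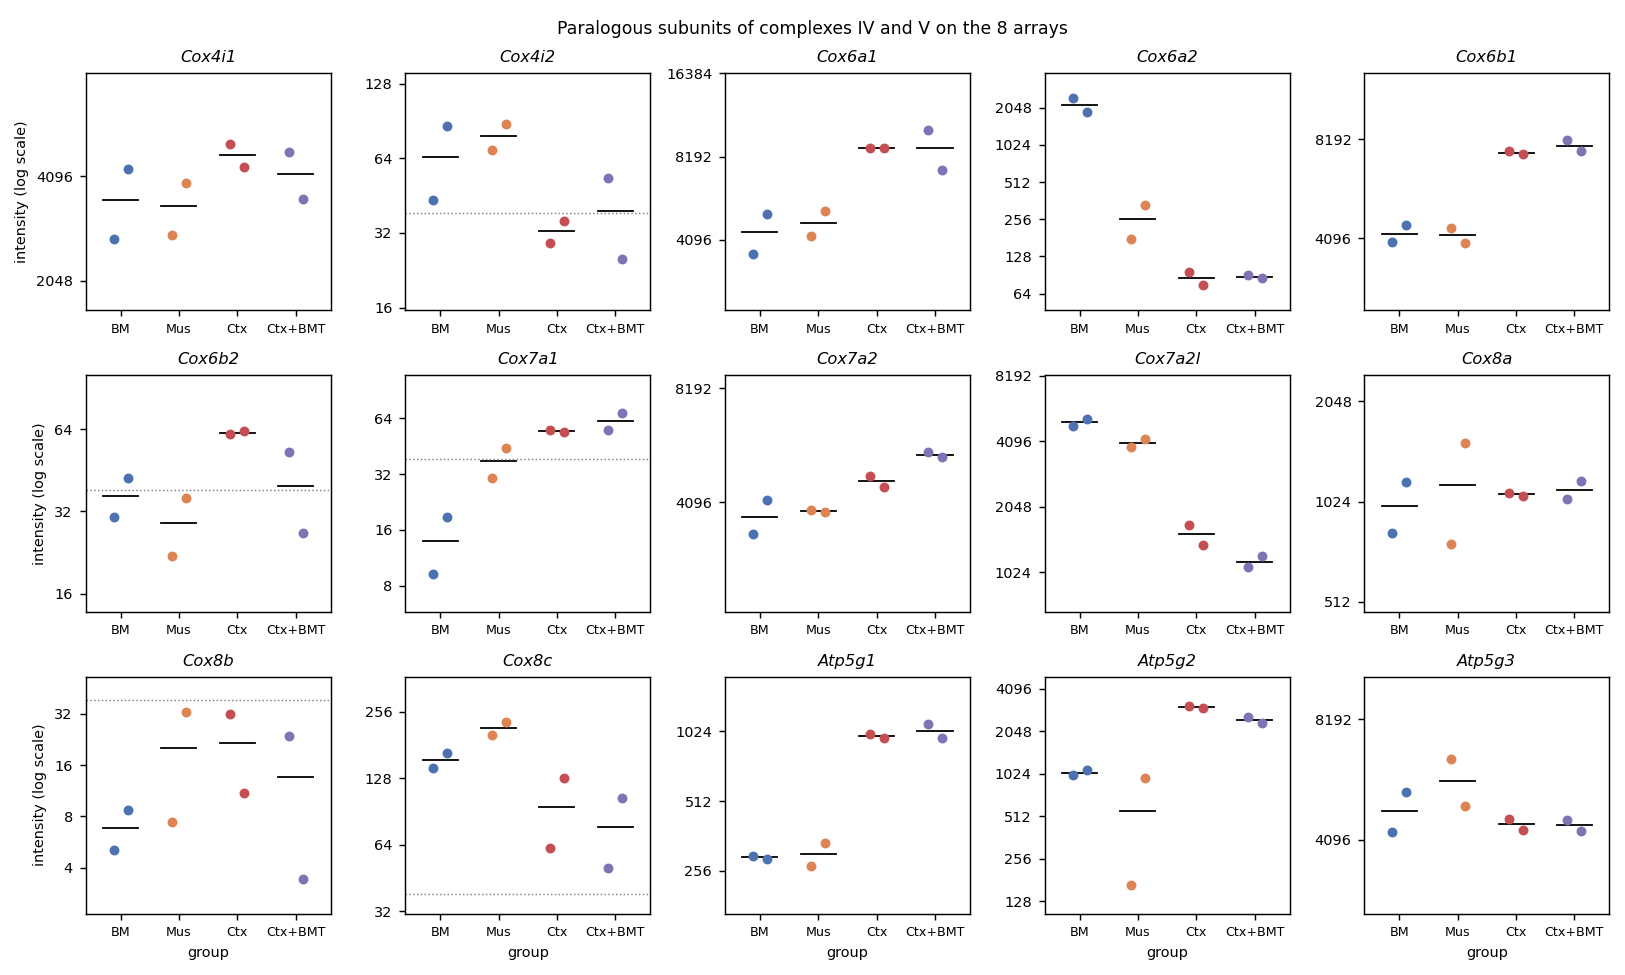
Intensity (log2-scaled axis) of 15 paralogous members on the 8 arrays of bone marrow (BM), uninjured (Mus), injured (Ctx) and transplanted injured muscle (Ctx+BMT); points are arrays, bars the mean of the 2 arrays of a group and the dotted line, where in range, the filter value of 38.4. Cox6a1 is higher and Cox6a2 lower after injury, and Atp5g1 and Atp5g2 rise while Atp5g3 does not pass.

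Several members had probe sets that disagreed. Of the 21 genes that rose, 11 had other probe sets, 25 in all, of which 21 had the same sign, 13 were called higher and 2 were called lower. In 8 of the 11 genes all other probe sets had the same sign. The opposite calls were in Ndufs8, where 1 probe set had 168 and 175 before and 55.8 and 39.9 after injury (log2 fold change -1.78, adjusted p = 0.0106), and in Cox5b, where 1 had 160.2 and 221 against 59.8 and 61.0 (-1.58, adjusted p = 0.0173). In both genes the probe sets thus gave calls in opposite directions.

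Calls also depended on the choice of probe set. For 6 members that were not called another probe set rose (Atp5h, Atp5j2, Cox8a, Ndufa3, Ndufb2 and Ndufc2), and for 3 another fell (Atp5a1, Atp5k and Uqcrq). Ndufc2, a subunit of the membrane arm, had 3449 and 2451 against 3066 and 2407 by the probe set that represents it (log2 fold change -0.10), but 147 and 292 against 1551 and 1609 by another (2.91, SE 0.36, adjusted p = 0.00212). Cox8a had 166 and 287 against 1199 and 1238 by another probe set (2.46, SE 0.32, adjusted p = 0.00241). Which transcript form each probe set reads is not stated in the labels. The 3' to 5' ratios differed between these arrays as given above, and their part in the disagreements was not tested.

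**Figure D5:**
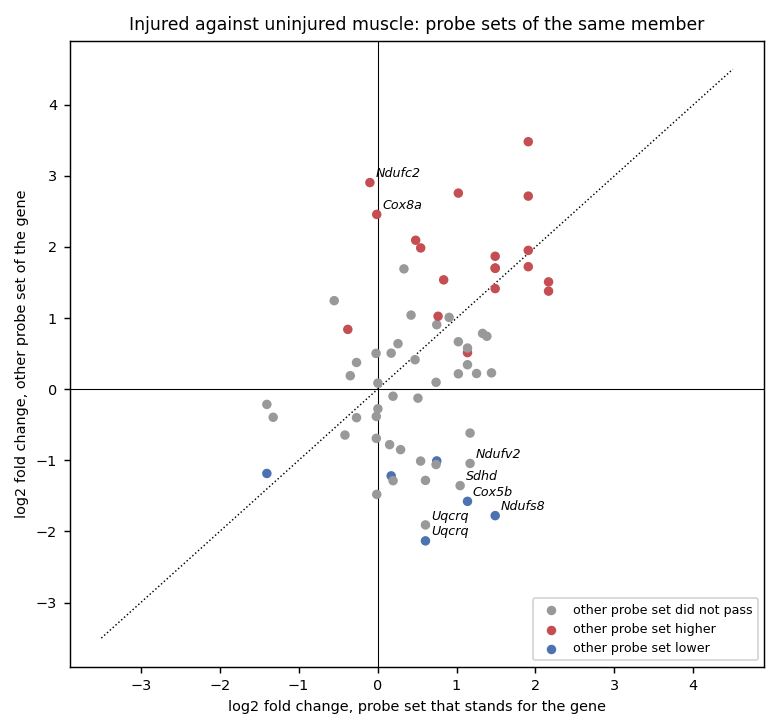
Log2 fold change of injured against uninjured muscle for the probe set that represents a member (horizontal) and for each other probe set of the same gene (vertical); colour gives the other probe set's call and the dotted line marks equal values. Of the 25 other probe sets of members called higher, 21 lie above 0, and the points high above the line near 0 on the horizontal axis include Ndufc2 and Cox8a.

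The genes around the chain were taken from lists. Regulators of mitochondrial gene expression had 3 of 13 tested genes lower and none higher after injury (by limma's unadjusted p under 0.05, 0 higher and 4 lower). The 3 are 23.1% of the list, against 13.9% of all probe sets called lower. In limma 41.0% of all probe sets were at an unadjusted p under 0.05, both directions together. Nrf1, nuclear respiratory factor 1, had 208 and 319 against 84.7 and 123 (log2 fold change -1.30, adjusted p = 0.034). Tfam, which packages and transcribes mitochondrial DNA, had 473 and 323 against 108 and 105 (-1.84, adjusted p = 0.014). Yy1, a zinc finger factor, had 1658 and 805 against 498 and 475 (-1.24, adjusted p = 0.0376). These 3 fell while 21 members rose on the same arrays.

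The assembly factors outside the symbols that passed were all higher, against 12.1% of all probe sets called higher and 13.9% lower. Of 3 for complex II, Sdhaf2, which attaches flavin to Sdha, had 182 and 126 against 655 and 761 (log2 fold change 2.19, adjusted p = 0.00395), and Sdhaf4 rose by 1.36. Of 5 for complex III, Uqcc1 and Uqcc2 rose by 2.54 and 1.99. Of 6 for complex I, Foxred1 rose by 1.15 (16.7% of the list), and of 14 for complex IV, Pet100 rose by 1.62 (7.14%). Fold changes were negative, without a call, for 1 factor of complex II, 2 of III, 2 of I and 5 of IV. Of 11 genes of cristae and supercomplex organisation 2 (18.2%) rose, Immt by 1.78 and Micos13 by 1.96, and 5 had negative fold changes. Of 11 carriers and pores 4 rose, among them the ADP/ATP carrier Slc25a5, with 3755 and 3709.7 against 6932 and 6550.2 (0.85), and the outer membrane channel Vdac2, with 2352 and 1892 against 4792 and 5101 (1.23, adjusted p = 0.00566). None of these lists had a member called lower.

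Pathways that feed the chain had no calls. Of 16 genes of the TCA cycle and pyruvate dehydrogenase none was called (by limma's unadjusted p under 0.05, 1 higher and 2 lower), with a median log2 fold change of 0.12. That unadjusted threshold was met by 41.0% of all probe sets, both directions together. Of 16 electron carrier and ubiquinone synthesis genes none was called (0 and 1 at an unadjusted p under 0.05), and cytochrome c, Cycs, had 2369 and 2057 against 1362 and 1412 (-0.67, adjusted p = 0.065). Neither of 2 complex V assembly factors passed (at an unadjusted p under 0.05, 1 higher and 0 lower).

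Cells of injured muscle in transplanted mice were next set against those of the bone marrow, the tissue transplanted. Of the 85 members 25 (29.4%) were higher in transplanted injured muscle, 3 (3.53%) were lower and 57 did not pass, against 15.1% and 17.4% of all probe sets and 12% and 19.5% of genes with 1 probe set each. The higher members were 8 subunits of complex I, 1 of complex II, 2 of complex III, 6 of complex IV, 7 of complex V and 1 assembly factor. The lower ones were Cox6a2, Cox7a2l and Ndufaf5. The median log2 fold change was 0.44 over the members against -0.19 over all probe sets, and by complex 0.50 for I, 0.71 for II, 0.42 for III, 0.13 for IV and 0.56 for V, with -0.78 for the assembly factors.

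This comparison shares no array with that of injured and uninjured muscle. Both comparisons, however, take each probe set's error from the same fit to the arrays of all groups, so their calls are not independent. Of the members higher here, 18 were also called higher there (72% of the 25 and 85.7% of the 21), and 2 were lower in both (66.7% of each 3), against shares of 58.6% and 73.2% for higher and 46.8% and 58.5% for lower calls over all probe sets. The 3' to 5' ratios differed in the same way in both comparisons. Macrophage markers summed to 3255 to 4130 in bone marrow and 38779 to 41718 in transplanted injured muscle (6 of 6 called higher), neutrophil granule genes to 27251 to 34603 against 161 to 224 and B cell genes to 12620 to 15616 against 126 to 173 (6 of 6 lower each). Of 7 fibroblast genes 6 were called higher, and 5 of 5 T cell and 4 of 6 proliferation genes lower. Their part was not tested. Without transplanted array 1 or 2 the higher count was 9 and 12, without bone marrow array 1 it was 12, and with quantile normalization 16. The lower count was 5 without uninjured muscle array 1 or 2. Probe sets disagreed here too. Of the 25 higher members, 14 had other probe sets, 24 in all. Of these, 19 had the same sign, 14 were called higher and 2 were called lower. For 7 members that were not called another probe set was higher, and for 4 another was lower (Atp5k and Cox8a in both directions).

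In complex I, Ndufa7 had 365 and 395 in bone marrow and 2192 and 2218 in transplanted injured muscle (log2 fold change 2.53, SE 0.24, adjusted p = 0.000311), and Ndufs5 had 165 and 229 against 1259 and 1330.1 (2.71, SE 0.30, adjusted p = 0.00056). Ndufb9 had 701 and 978 against 2315 and 2251 (1.46, adjusted p = 0.0044) and Ndufab1 195 and 292 against 1030.0 and 713 (1.83, adjusted p = 0.0049). These 4 were higher in both comparisons. Ndufb3, of the membrane arm, was higher only by the call of this one, by 0.96 log2 units (adjusted p = 0.0285), against 0.41 in the other (adjusted p = 0.286), a difference that was not tested. The lowest fold change of the complex was that of Ndufv1, the subunit that binds NADH, with 920.1 and 1368 against 762 and 703 (-0.61, adjusted p = 0.186).

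In complex II, Sdhb had 1803 and 1424 in bone marrow and 3918 and 4519 in transplanted injured muscle (log2 fold change 1.39, SE 0.25, adjusted p = 0.00459). Sdha had 3004 and 2119 against 1557 and 1823 (-0.58, adjusted p = 0.252), Sdhc 212 and 437 against 487 and 764 (0.99, adjusted p = 0.236), and Sdhd 1364 and 525 against 1172 and 1108 (0.43, adjusted p = 0.645). By the probe sets that represent them, the order of the 4 was the same as after injury, with Sdhb alone past the threshold and Sdha alone below 0. Another probe set of Sdha was called lower, with 1952 and 2094 in bone marrow against 874 and 870. In complex III, Uqcr10 had 153 and 154 against 1079 and 1336 (2.94, SE 0.53, adjusted p = 0.00481). Uqcrb, which binds near the ubiquinone site, had 7892 and 8616 against 12116 and 10846 (0.48, SE 0.15, adjusted p = 0.0383), a small change whose sign turned with quantile normalization (-0.22).

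In complex IV, Cox6a2 had 2435 and 1892 in bone marrow and 90.5 and 85.1 in transplanted injured muscle and was 4.55 log2 units lower (fold change -4.55, SE 0.38, adjusted p = 0.000192). Cox7a2l had 4838 and 5159 against 1082 and 1216 (-2.12, SE 0.21, adjusted p = 0.000392). The subunits that were higher were Cox5b with 0.94, Cox6b1 with 0.89, Cox6a1 with 1.01, Cox6c with 0.83 and Cox7a2 with 0.55 log2 units, and Cox7a1. Cox7a1 had 9.24 and 18.8 in bone marrow, under the filter value, and 55.3 and 68.5 in transplanted injured muscle, and so was at least 1.56-fold higher (adjusted p = 0.0145). On no array did it exceed 68.5.

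In complex V, Atp5l had 151 and 134 in bone marrow and 2207 and 2523 in transplanted injured muscle (log2 fold change 4.01, SE 0.33, adjusted p = 0.000173), again the largest of the members. Atp5g1 had 296 and 288 against 1101 and 961 (1.80, adjusted p = 0.00235), and Atp5md, a small protein of the membrane part, 309 and 276 against 888 and 960.2 (1.65, adjusted p = 0.00312). The other groups lay between these for Atp5md, with 493 and 480.0 in uninjured and 751 and 639.7 in injured muscle, and the single steps were not called (adjusted p = 0.185, 0.189 and 0.842). Atp5o, Atp5e, Atp5mpl and Atp5j2 were higher by 1.03, 1.61, 1.02 and 0.66. Atp5g2 had 995 and 1092 against 2576 and 2345 (1.23, adjusted p = 0.183), with its error set by the wide gap of the uninjured muscle arrays, since all groups share 1 estimate of the spread. Of the assembly factors, Ndufaf3 was higher by 1.27 (adjusted p = 0.0215), and Ndufaf5 had 196 and 145 against 69.5 and 87.2 (-1.08, adjusted p = 0.0442).

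Around the chain, Nrf1 was lower by -1.80 (298 and 369 in bone marrow, 94.4 and 90.7 in transplanted injured muscle) and Tfam by -2.36 (536 and 509.6 against 69.5 and 138), with adjusted p = 0.00783 and 0.0036. Pparg, a nuclear receptor of lipid metabolism, had 19.5 and 2.75, under the filter value, against 399 and 349 and was at least 8.91-fold higher. Nfe2l2, a regulator of the oxidative stress response, was also called higher, with 789 and 338 against 1809 and 1809 (log2 fold change 1.80, adjusted p = 0.0209). Regulators thus had 2 higher and 3 lower of 13. Sdhaf2 and Sdhaf4 were higher by 2.11 and 1.72, and Sdhaf1, which helps insert iron-sulphur clusters into Sdhb, had 233 and 362 against 79.1 and 81.2 (-1.81, adjusted p = 0.0152). Idh3g was the 1 TCA cycle gene of 16 called, with 1682 and 1640.3 against 877 and 998 (-0.83, adjusted p = 0.0452). Of 16 electron carrier genes 1 was lower, of 14 complex IV assembly factors 2 were higher, and of 11 carriers 2. Over all probe sets 15.1% were called higher and 17.4% lower.

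The tissue difference without injury was addressed with uninjured muscle against bone marrow. None of the 85 members was higher in muscle and 2 (2.35%) were lower, and by limma's unadjusted p under 0.05 the counts were 2 and 5. That unadjusted threshold was met by 19.4% of all probe sets, both directions together. Over all probe sets 4.83% were called higher and 1.25% lower, and over genes with 1 probe set each 5.85% and 1.4%. The median log2 fold change was -0.08 over the members and -0.03 over all probe sets. By complex it was -0.08 for I, -0.50 for II, 0.01 for III, -0.03 for IV and 0.10 for V, and -0.48 for the assembly factors. Both groups had high 3' to 5' ratios and, over the members, the widest gaps between arrays. The signs of the medians of I, III, IV and V turned under at least 1 alternative. Without uninjured muscle array 2, 6 members were lower, without array 1 of that group 1 was higher, and with only the arrays compared 1 was lower. Between the same arrays 7 of 7 fibroblast, 4 of 6 macrophage and 4 of 7 endothelial genes were called higher in uninjured muscle, and 4 of 6 B cell, 2 of 6 proliferation and 1 of 6 neutrophil granule genes lower. Macrophage markers summed to 3255 to 4130 in marrow and 15374 to 18783 in uninjured muscle, fibroblast markers to 130 to 304 against 8883 to 31761, and B cell genes to 12620 to 15616 against 2757 to 4180. Their part in the members' values was not tested.

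Cox6a2 was the subunit that stood out here. It had 2435 and 1892 in the marrow cells against 177 and 335 in uninjured muscle (log2 fold change -3.12, SE 0.38, adjusted p = 0.00278), and this call held under every alternative run. The muscle form of the subunit was therefore measured at its highest in the marrow cells and lower in each group from muscle. Skeletal muscle fibre genes ran the other way, with 9 of 22 tested higher in uninjured muscle than in marrow and summed intensities of 967 to 1154 in marrow and 5495 to 8114 in uninjured muscle. Because Cox6a2 is also known from plasmacytoid dendritic cells, 10 markers of these cells were looked up after the value was seen. They summed to 16731 to 17348 in marrow cells, 3257 to 5856 in uninjured muscle, 8237 to 8542 in injured and 8817 to 9239 in transplanted injured muscle, and 4 of 10 (Bst2, Irf8, Ccr9 and Ly6d) were lower in uninjured muscle than in marrow. In injured against uninjured muscle 3 of the 10 were called higher and 2 lower (30% and 20%), against 12.1% and 13.9% of all probe sets. In transplanted injured muscle against marrow 2 were called higher and 5 lower (20% and 50%), against 15.1% and 17.4%. Ccr9, a chemokine receptor, had 1489 and 1737 in marrow cells, 103 and 129.8 in uninjured muscle, 62.9 and 58.2 in injured and 32.5 and 44.9 in transplanted injured muscle. Bst2, which interferon also induces, had 2015 and 1933, 90.5 and 339, 2650.2 and 2403, and 3245 and 2352 in these groups. The part of these cells in the Cox6a2 values was not tested.

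Dmac2 had 152 and 169 in the marrow cells against 15.2 and 30.9 in uninjured muscle, under the filter value, and was at least 3.88-fold lower there (adjusted p = 0.00994), a call that was lost without either bone marrow array. Its injured arrays lay between these, so it was the lowest in uninjured muscle. The other members nearest the threshold did not pass. Ndufa3 had 2685 and 3156 against 1307 and 2252 (-0.76, adjusted p = 0.177), Cox7c 130.4 and 176 against 60.7 and 84.1 (-1.04, adjusted p = 0.166), Cox7a1 9.24 and 18.8 against 30.6 and 44.3 (adjusted p = 0.184, with no fold given because both group means were under the filter value) and Atp5a1 4683 and 2955 against 2123 and 2309.5 (-0.75, adjusted p = 0.146). All 4 complex II subunits had negative fold changes, between -0.90 for Sdhd and -0.19 for Sdha, with adjusted p = 0.356 or more. Of all probe sets 48.2% had positive fold changes. Of the lists around the chain, Pparg was at least 2.46-fold higher, with 19.5 and 2.75 against 134 and 67.0 (adjusted p = 0.0271), and Micos13, a protein of the cristae junctions, had 1148 and 919 against 187 and 306 and was lower (-2.08, adjusted p = 0.0108).

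The effect of the transplant was addressed with injured muscle of transplanted against untransplanted mice, where all 4 arrays had low 3' to 5' ratios. No member was called in either direction, and in limma none was at an unadjusted p under 0.05 either (0 higher and 0 lower). That unadjusted threshold was met by 8.75% of all probe sets, both directions together. Over all probe sets 0.0246% were called higher and 0.227% lower, and over genes with 1 probe set each 0.0421% and 0.274%, so calls were rare for every kind of gene. Both transplanted arrays were above both untransplanted ones for 29 (34.1%) of the 85 members and below for 12 (14.1%), against 24.9% and 25.3% of all probe sets, and 55 members had positive and 30 negative fold changes. Of all probe sets 50.5% had positive fold changes. The medians by complex were 0.13 for I, 0.19 for II, 0.08 for III, 0.06 for IV and 0.02 for V, with 0.39 for the assembly factors, against 0.00 over all probe sets. The median of II was -0.03 with all probe sets of a gene averaged, and that of V fell below 0 with quantile normalization (-0.01) and without injured array 2 (-0.04) or transplanted array 1 (-0.01). The SE, a median of 0.45 log2 units over all probe sets, rests on the spread of all 8 arrays, not only of those compared. Between the arrays of a group the members' median difference was 0.41 in bone marrow and 0.48 in uninjured muscle. In injured and transplanted injured muscle it was 0.13 and 0.20. With only the arrays compared in the fit, 1 member was called higher and 0 lower. The absence of calls in the main fit does not show equal levels.

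The members nearest to a difference were small in both directions. Ndufs5 had 969.7 and 966 in untransplanted and 1259 and 1330.1 in transplanted injured muscle (log2 fold change 0.42, SE 0.30, adjusted p = 0.881), and Cox7a2l 1689 and 1373 against 1082 and 1216 (-0.41, SE 0.21, adjusted p = 0.696). Uqcrq, a small subunit of complex III, had 1089 and 776 against 1469 and 1332 (0.60, SE 0.35, adjusted p = 0.783), the highest fold change among the subunits. Ndufc2 had 3066 and 2407 against 2223 and 1595 (-0.53, SE 0.27, adjusted p = 0.686), and Cox6b2 had the lowest fold change, -0.66, from 61.2 and 63.0 against 52.6 and 26.7. The 4 subunits of complex II had 0.02 to 0.28. In the same comparison 3 of 22 tested muscle fibre genes were called lower, the summed fibroblast markers were 22521 to 22658 against 4299 to 4589 (none of 7 called, 5 lower at an unadjusted p under 0.05 in limma), and those of proliferation 3083 to 3155 against 971 to 1046 (none of 6 called, all 6 lower at an unadjusted p under 0.05 in limma). Of all probe sets 8.75% met that unadjusted threshold, both directions together.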

How the data were processed

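The arrays were Affymetrix Mouse430A GeneChips, 2 in each of 4 groups, with groups taken from the sample titles. Each deposited value is the linear intensity of a probe set, and the authors' scaling had brought the trimmed mean of each array, with the lowest and highest 2% left out, to 250.09 to 250.12 (checked). The submitters' processing notes name GCOS; the summarisation of probes is not given in the sources used here. Of 22690 probe sets, 64 controls were left out. Of the rest the platform annotation gave 1 gene to 20380, several to 691 and none to 1555, and 8 probe sets that name a member beside another gene were not used. Symbols were updated through RefSeq gene identifiers for 20351.

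Intensities under 1 were set to 1 and log2(intensity + 4) was computed from the deposited values; a fold change on this scale understates the change of dim genes. Probe sets at or above 38.4 on at least 2 of 8 arrays were tested (16289, representing 9506 genes). limma 3.58.1 under R 4.3.3 fitted 1 mean per group to all 8 arrays, with an intensity trend (4 residual and a median of 4.07 prior degrees of freedom), two-sided, with Benjamini-Hochberg adjustment over all probe sets. Only 2 arrays per group limit the precision. Where neither array of the lower group reached 38.4, the text gives the fold as at least a value, computed from that floor, or no fold where both group means lay under it; plotted values and medians are the fitted ones. The script was tested on simulated data.

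The members and the gene lists were chosen with earlier results of these data known, and the list of plasmacytoid dendritic cell markers was added after values were seen. Of 219 genes on the first 21 lists, 172 had a probe set. Named in each comparison were, per complex, up to 4 members with the smallest p and those with the highest and lowest fold change, all paralogue sets, all complex II subunits, and up to 3 of the smallest p of each other list; further genes were named after their values were seen. Alternatives were another pseudocount, filter, floor, normalization, probe set rule, fit of only the arrays compared, replicate block, and leaving out each array.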

Additional observations from a re-analysis of the deposited data

How the results depend on the processing

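Each member's log2 fold change and call was recomputed under pseudocounts of 1 and 16, no filter, a filter at the 60th percentile, values below the 40th percentile set to it, quantile normalization, median centring, averaging of a gene's probe sets, only the arrays compared, the replicate block, each array left out and, chosen after seeing the data, probe sets without the _x_at or _s_at suffix. Under every alternative run, 5 of 24 member calls held in the injury comparison, 10 of 28 in that of transplanted injured muscle with bone marrow (Atp5g1, Atp5l, Atp5md, Cox6a2, Cox7a2l, Ndufa7, Ndufb9, Ndufs5, Sdhb and Uqcr10) and 1 of 2 for uninjured muscle against bone marrow (Cox6a2). Dmac2 lost its call in that comparison with only the arrays compared and without either bone marrow array. Called members whose sign reversed were Uqcrb with quantile normalization (-0.22, transplanted injured muscle against bone marrow) and, with probe sets averaged, Ndufv2 (-0.16 injured against uninjured muscle, -0.21 transplanted injured muscle against bone marrow) and Cox6c (-0.037, transplanted injured muscle against bone marrow). The last 2 follow from the averaging of probe sets that disagree; for Uqcrb the cause was not tested. Members called higher numbered 16 with quantile normalization for transplanted injured muscle against bone marrow. With only the arrays compared 1 was lower in uninjured muscle than bone marrow, 11 were higher and 1 lower after injury, and 1 was higher in transplanted than untransplanted injured muscle. With an array left out, the higher and lower counts ranged from 0 to 1 and 1 to 6 for uninjured muscle against bone marrow, 6 to 30 and 1 to 8 for the injury comparison, 0 to 0 in both directions between the injured groups, and 9 to 31 and 2 to 5 for transplanted injured muscle against bone marrow. Same-numbered arrays deviated together between bone marrow and uninjured muscle (correlation 0.313) and not in the other pairs of groups (-0.0317 to 0.0031), so the numbers were not taken to pair the samples over all groups. With the replicate block the counts were 0 and 2, 22 and 3, 0 and 0, and 21 and 2, in the order of comparisons above. Median centring moved the median of all probe sets from -0.03 to -0.21, -0.14 to 0.00, 0.00 to 0.14 and -0.19 to -0.08 in that order. Medians by complex changed sign for complex IV after injury with quantile normalization (-0.02) and the 60th percentile filter (-0.01), and for the assembly factors without Muscle replicate 1 (0.33). In transplanted injured muscle against bone marrow that of complex IV was -0.01 with probe sets averaged and -0.07 without BM replicate 1. Between the injured groups the median of complex II was -0.03 with probe sets averaged, and that of complex V -0.01 to -0.04 under 3 alternatives. With 2 arrays per group and low intensities near the filter, small changes of dim members such as Cox8b, Cox6b2 and Cox7a1 could not be resolved.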
